A study of Mus musculus with 8 samples.

Results

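Receptor genes for 2 neurotransmitters of the mouse cortex are described here by sites of C-to-U change, a readout of m6A, that differed between aged and young cells. The genes were Grin2b, which encodes the GluN2B subunit of NMDA-type glutamate receptors, and Gabbr1 and Gabbr2, which encode the subunits of the GABA-B receptor. All sites assigned to these 3 genes in the authors' table of differing sites were taken, namely 11 in Grin2b, 1 in Gabbr1 and 5 in Gabbr2. They make up 17 of the 2055 listed sites and 3 of the 789 listed genes.

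Aged cells came from the cortex of APOBEC1-YTH mice that were 12 to 14 months old when tamoxifen treatment began (20 mg/kg every 24 h for 5 days, with collection 7 days after the last dose). Young cells came from a companion study, for which the sources used here state neither age nor treatment, and they enter through the table alone. Neither the promoter or driver behind the transgene nor the number of mice is stated. The 8 aged libraries, all of 1 group, are 2 sublibraries run over 4 lanes each, so no animal replicates can be separated. Per-cell expression was not analysed here. Of 6 neuronal markers 5 had a listed site, and of the astrocyte, microglial and endothelial markers 0, but a table of differing sites cannot show which cell types were present.

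APOBEC1-YTH joins a cytidine deaminase to the YTH domain, which binds N6-methyladenosine (m6A), the most common internal mark of messenger RNA. The fusion turns C into U beside a methylated A, so that C-to-U changes in the reads of single cells report m6A. NMDA receptors are calcium-permeable glutamate channels built from GluN1 and GluN2 subunits, and GluN2B is a major GluN2 subunit of the forebrain. The GABA-B receptor is a G protein-coupled receptor for the inhibitory transmitter GABA that works as a dimer, in which the Gabbr1 subunit binds GABA and the Gabbr2 subunit engages the G protein.

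Each site has 3 linked measures per age. The first is the share of cells called methylated, among 846 aged and 2623 young cells. The second is the mean C-to-U over all cells of an age, with other cells counted as 0. The third is C-to-U within the methylated cells, which is the mean divided by the share. Shares carry exact binomial (Clopper-Pearson) 95% intervals, which cover counting error over cells only. The table holds 1 value per age, so no value has a replicate error and no test was added to the authors' own. Reads per site are not in the table, so the read depth behind each value is unknown. A cell without reads at a site counts as unmethylated, so fewer cells with the RNA, less RNA per cell and less methylation cannot be told apart in the shares and means.

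Sites are named by their base in the longest principal transcript of GENCODE M21. Grin2b (ENSMUSG00000030209.14) spans chr6:135713233-136173511 on the minus strand of mm10, and its transcript has 14 exons and 24060 bases, of which 18865 are 3' UTR. Gabbr1 (ENSMUSG00000024462.17) spans chr17:37045966-37075067 on the plus strand, with 23 exons and 5248 bases in the transcript. Gabbr2 (ENSMUSG00000039809.10) spans chr4:46662305-46991873 on the minus strand, with 19 exons and 5750 bases. Of the 17 sites 4 lay in a 5' UTR (all in Grin2b), 2 in coding exons and 11 in 3' UTRs.

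The sequences below are those of the largest differences, of the neighbouring pairs and of the site with no methylated aged cell. They run 5' to 3' on the gene's strand, in DNA letters. Capitals mark the edited C with the 2 bases before it or, in the pairs, both edited bases.
Grin2b 5' UTR bases 395 and 396 (chr6:136171738-136171759): gaaaagagaaCCcaacccttaa
Grin2b 3' UTR base 7794 (chr6:135729489-135729509): aaaaagttAACgggaacagaa
Grin2b 3' UTR base 6986 (chr6:135730297-135730317): agcttgacTGCaggatcgccg
Grin2b 3' UTR base 23925 (chr6:135713358-135713378): aaaaaaaaGACaacataaaaa
Gabbr1 3' UTR base 4387 (chr17:37074196-37074216): gatggactGACcgggcgggag
Gabbr2 coding base 2701 (chr4:46677616-46677636): caaaccctGACgcagccactc
Gabbr2 3' UTR base 3548 (chr4:46664497-46664517): aaatcaaaCTCtagacaaagg
Gabbr2 3' UTR bases 4076 and 4078 (chr4:46663967-46663989): tcccagaaaaCaCgataaagaaa

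On the strand of the gene, a C stood at 17 of 17 sites. It followed an A at 14 sites (82.4%), against 22.8% of the 851 other C bases within 100 bases of the sites, and the share over all placed sites of the table was 76.9%. It lay in AAC or GAC, in which the middle A is the candidate m6A, at 13 sites, against 12.2% of the other C bases nearby and 72% of placed sites. Both were searched on the transcript strand only. The exceptions to C after A were Grin2b base 396, which directly follows the edited C of base 395, Grin2b base 6986 and Gabbr2 base 3548. Whether these exceptions report m6A was not tested, and cells with C-to-U there are called methylated as at the other sites. Gabbr2 base 4078 followed an A but lay in CAC. The 3' UTR of Grin2b alone holds 423 AAC or GAC trinucleotides, and 5 of them were listed as differing, while its 5' UTR holds 22, of which 3 were listed. The 41 bases around a site occurred in the annotated transcripts of another gene at 0 of 17 sites. Grin2b base 3491 lies within the span of Gm14329 on the opposite strand, and whether strand was used in the counting is not stated.

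Across Grin2b, mean C-to-U was higher in aged cells at all 4 sites of the 5' UTR and at the coding site, and lower at all 6 sites of the 3' UTR. Summed over the 4 sites of the 5' UTR it was 10.4% in aged and 3.10% in young cells. Over the 6 sites of the 3' UTR it was 3.94% in aged and 11.0% in young cells. Over all 11 sites these opposite differences left sums of 14.5% in aged and 14.2% in young cells. Sums over sites are used as a scale of signal and can count the same cell more than once.

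Among all listed 5' UTR sites, 36.2% had a higher mean in aged cells, and among all listed 3' UTR sites 76.1% had a lower one. The 3' UTR sites of Grin2b thus went the way of most such sites in the table, and its 5' UTR sites went against most of theirs. Of the 20 genes with listed sites in both UTRs, 5 had every 5' UTR site higher and every 3' UTR site lower. Beside Grin2b these were the glutamate receptor gene Grm5, the postsynaptic scaffold gene Dlg2, and Celf4 and Fam168a. They are named here after their values were seen. Whether 5 of 20 genes is more than the 2 table-wide shares would give was not tested. Some of these genes had few sites, and Dlg2 had 2 in all, 1 higher and 1 lower.

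**Figure D1:**
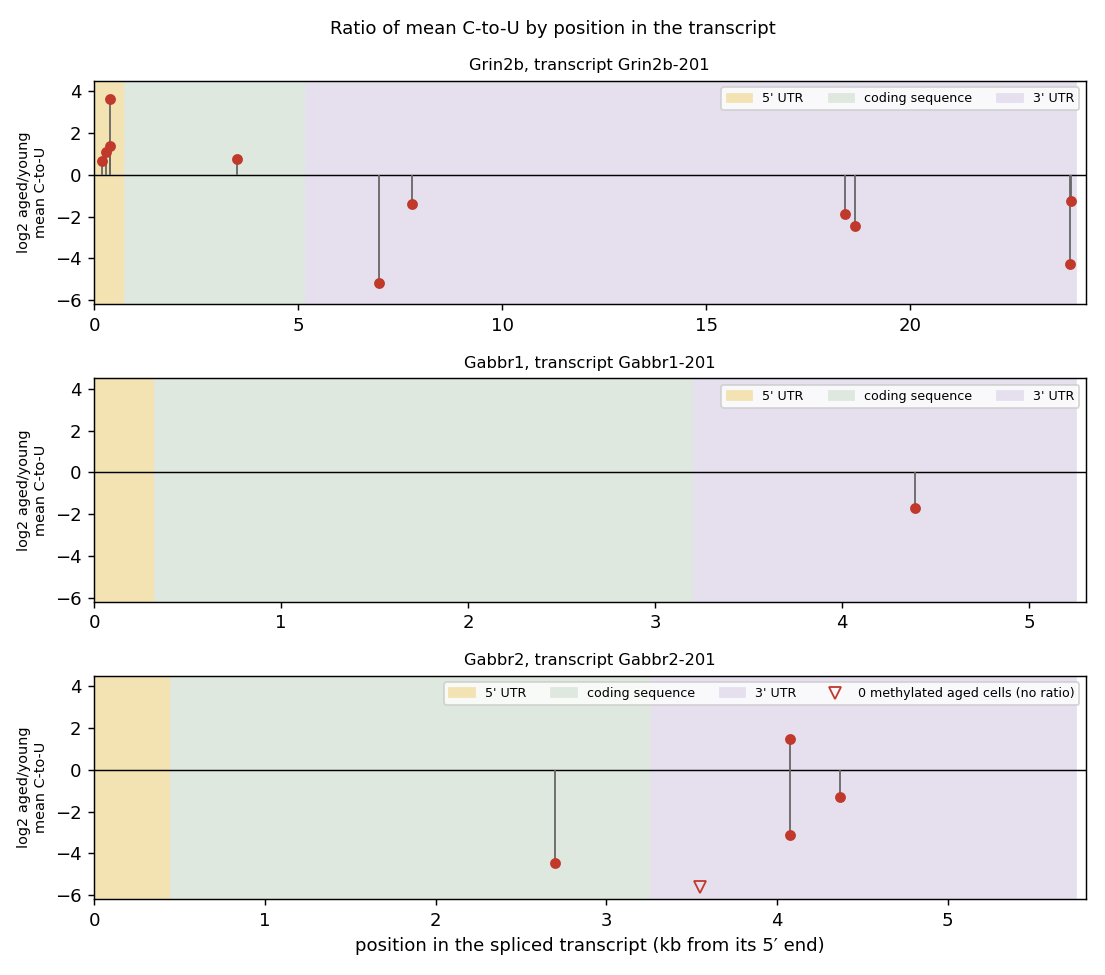
The log2 ratio of mean C-to-U in aged over young cells (vertical axis) at each site, against its position in the spliced transcript in kb (horizontal axis), for Grin2b, Gabbr1 and Gabbr2, with shading for the transcript regions. The 5 leftmost Grin2b sites lie above 0 and its 6 sites in the 3' UTR below 0, while the open triangle marks the Gabbr2 site with 0 methylated aged cells, which has no ratio.

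The strongest increase in the 5' UTR of Grin2b was at base 395, in exon 2 of 14 (chromosome 6, position 136171749). Methylated cells numbered 227 of 846 aged cells, or 26.8% (23.9 to 29.95), against 307 of 2623 young cells, or 11.7% (10.5 to 13.0). C-to-U within them was 25.7% in aged and 22.7% in young cells, beside shares that stood 2.29-fold apart. Mean C-to-U was 6.88% in aged and 2.66% in young cells, a log2 ratio of 1.37. The authors' deposited table gives an adjusted p of 7.45e-34. By the difference in mean, 4.22 points, it ranked 1 of the 80 listed 5' UTR sites and 24 of all 2055 sites. Its share in aged cells also ranked 1 among the 80.

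The next base, 396 (position 136171748), is a C that follows another C. It was methylated in 112 aged cells, or 13.2% (11.0 to 15.7), against 60 young cells, or 2.29% (1.75 to 2.93). C-to-U within those cells was 24.4% in aged and 11.3% in young cells, so that both measures were higher in aged cells. The mean was 3.23% in aged and 0.259% in young cells, a log2 ratio of 3.64, the largest positive ratio among the 17 sites. In the authors' deposited table its adjusted p is 3.68e-40. For every 100 cells methylated at base 395 there were 49.3 at base 396 in aged cells and 19.5 in young cells. Whether they were the same cells or reads is not given in the table.

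The other 5' UTR sites had low means. Base 284, also in exon 2 (position 136171860), was methylated in 27 aged cells, or 3.19% (2.11 to 4.61), and in 31 young cells, or 1.18% (0.804 to 1.67). Its mean was 0.173% in aged and 0.0796% in young cells, with C-to-U within methylated cells at 5.41% in aged and 6.74% in young cells. Base 198, in exon 1 (position 136172928), was methylated in 25 aged cells, or 2.96% (1.92 to 4.33), and in 12 young cells, or 0.457% (0.237 to 0.798). Its share stood 6.46-fold higher in aged cells but C-to-U within the methylated cells was 5.32% in aged and 21.9% in young cells, which left means of 0.157% in aged and 0.1000% in young cells. At all 4 sites the interval of the aged share lay above that of the young share. Over all listed sites the intervals lay apart, in either direction, at 62.5%, and this was not counted for 5' UTR sites alone. A higher share was also found at 95% of all listed 5' UTR sites, so by this measure Grin2b did not stand apart. The adjusted p was 7.39e-05 at base 284 and 9.63e-10 at base 198 in the authors' deposited table.

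The single coding site of Grin2b, base 3491 in exon 14 (position 135733802), had 11 methylated aged cells, or 1.30% (0.651 to 2.31), and 18 young ones, or 0.686% (0.407 to 1.08). Among all listed coding sites 58% had a higher mean in aged cells. At this one the mean was 0.119% in aged and 0.0693% in young cells, and C-to-U within the methylated cells was 9.13% in aged and 10.1% in young cells. The intervals of the shares overlapped. The adjusted p was 0.0222 in the authors' deposited table.

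In the 3' UTR of Grin2b, 1 site held most of the signal. Base 7794, which lies 2599 bases after the stop codon in exon 14 (position 135729499), was methylated in 35 aged cells, or 4.14% (2.90 to 5.71), against 361 young cells, or 13.8% (12.5 to 15.1). Within the methylated cells C-to-U was 89.6% in aged and 70.5% in young cells. Fewer aged cells were thus called methylated, with a larger edited fraction in those that were. The mean was 3.71% in aged and 9.71% in young cells, a log2 ratio of -1.39. The authors' deposited table gives an adjusted p of 0.0237. The drop ranked 9 among all 2055 sites.

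The Gabbr1 site had a closely similar profile. Base 4387 lies 1180 bases after the stop codon, in exon 23 of 23 (chromosome 17, position 37074206). It was methylated in 27 aged cells, or 3.19% (2.11 to 4.61), against 356 young cells, or 13.6% (12.3 to 14.9). C-to-U within them was 88.5% in aged and 68.3% in young cells. The mean was 2.83% in aged and 9.26% in young cells, a log2 ratio of -1.71. The authors' deposited table gives an adjusted p of 0.0019, and the drop ranked 7 among all sites. At each age the share at Gabbr1 base 4387 and that at Grin2b base 7794 had overlapping intervals. The edited C followed GA at Gabbr1 and AA at Grin2b, and was followed by C at Gabbr1 and by G at Grin2b. A lower share with a higher edited fraction was not particular to these genes. At the site of largest difference in Gria2 the shares were 4.14% in aged and 34.9% in young cells, and the fractions 42.5% and 20.9%. In Gria3 the shares were 1.65% and 22.2%, and the fractions 76.7% and 44.4%. In Grin1 and Grm5 both measures were lower in aged cells at that site.

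**Figure D2:**
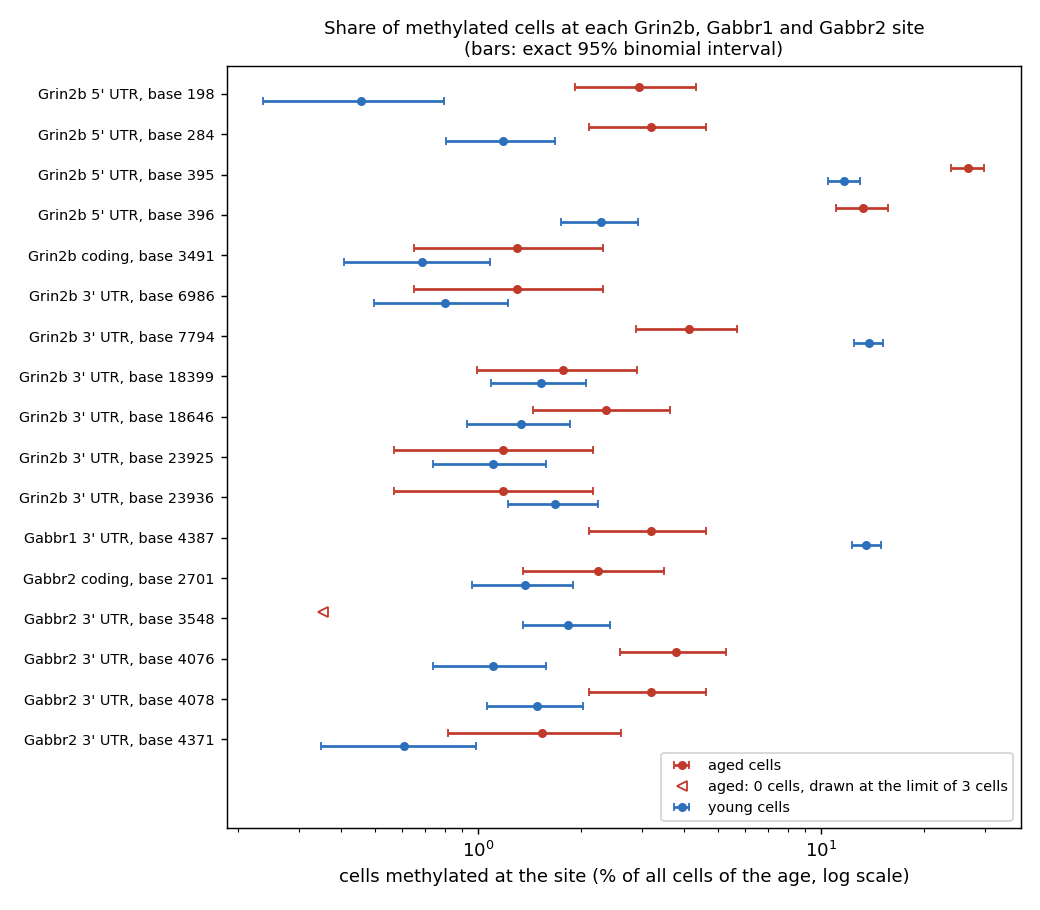
Share of cells methylated at each of the 17 sites, in percent of all aged (red) and all young (blue) cells on a log axis, with exact 95% binomial intervals as bars. Aged shares lie clear above young ones at 6 sites and clear below at 3, and the open triangle stands for 0 of 846 aged cells, drawn at the limit of 0.355%.

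The other 5 sites in the 3' UTR of Grin2b had few methylated cells at either age, with 10 to 20 aged and 21 to 44 young ones. The intervals of their shares overlapped at all 5, and their lower means went with lower C-to-U within the methylated cells. At base 6986 (position 135730307) the share was 1.30% (0.651 to 2.31) of aged and 0.801% (0.496 to 1.22) of young cells. C-to-U within the methylated cells was 0.814% in aged and 47.4% in young cells, and the mean 0.0106% in aged and 0.379% in young cells. Its log2 ratio of -5.16 was the most negative of the 16 ratios and rested on 11 aged and 21 young cells.

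At base 23925 (position 135713368), 135 bases before the end of the transcript, the share was 1.18% (0.568 to 2.16) of aged and 1.11% (0.742 to 1.58) of young cells. C-to-U within the methylated cells was 1.52% in aged and 31.5% in young cells, and the log2 ratio of means was -4.27. Base 23936, 11 bases further on, had 10 aged and 44 young methylated cells, with C-to-U within them of 12.9% in aged and 21.6% in young cells and a log2 ratio of -1.25. In this pair the aged cells gave equal shares and unlike edited fractions. Bases 18399 and 18646 (positions 135718894 and 135718647) lie over 13 kb after the stop codon. C-to-U within their methylated cells was 1.55% in aged and 6.48% in young cells at base 18399, and 0.982% in aged and 9.38% in young cells at base 18646. Their mean C-to-U was 0.0274% in aged and 0.0988% in young cells at base 18399, and 0.0232% in aged and 0.125% in young cells at base 18646. The last 4 sites of the transcript stood in A-rich windows, with 13 to 17 A among 21 bases. At the other sites of the 3 genes the number ran from 3 (Grin2b base 3491) to 13 (Gabbr2 base 4078). It was 12 at base 7794, 4 at base 6986 and 4 at the Gabbr1 site, so such windows were not confined to the end of Grin2b. At these 5 sites the adjusted p-values of the authors' deposited table lay between 2.01e-11 (base 18646) and 0.0178 (base 18399).

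Gabbr2 had 4 sites with a lower and 1 with a higher mean in aged cells, while at 4 of its 5 sites more aged cells, by share, were methylated. At the pair of bases 4076 and 4078, 805 and 807 bases after the stop codon in exon 19 of 19, the directions of the mean were opposite 2 bases apart. Base 4076 (chromosome 4, position 46663979) was methylated in 32 aged cells, or 3.78% (2.60 to 5.30), and in 29 young cells, or 1.11% (0.742 to 1.58). C-to-U within them was 26.2% in aged and 32.1% in young cells, and the mean was 0.989% in aged and 0.355% in young cells, a log2 ratio of 1.48. Base 4078 (position 46663977) was methylated in 27 aged cells, or 3.19% (2.11 to 4.61), and in 39 young cells, or 1.49% (1.06 to 2.03). C-to-U within them was 0.885% in aged and 16.7% in young cells, so the mean was 0.0282% in aged and 0.249% in young cells, a log2 ratio of -3.14. The shares therefore moved the same way at both bases, and the edited fraction parted them. The adjusted p was 4.49e-22 at base 4076 and 2.79e-11 at base 4078 in the authors' deposited table.

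Base 3548 of Gabbr2, 277 bases after the stop codon (position 46664507), had 0 methylated cells among 846 aged ones, so that a share of up to 0.355% is possible when 3 cells are taken as the limit (the exact two-sided interval reaches 0.435%). It was methylated in 48 young cells, or 1.83% (1.35 to 2.42), with C-to-U of 51.7% within them and a mean of 0.947%. Against the limit of 3 cells the share was at least 5.16-fold lower in aged cells, a bound that leaves out the counting error of the young share. No listed site had under 25 methylated cells over both ages, and this one reached that number through young cells alone. The bound is therefore a description of a selected site and no support for a difference. Such sites were rare in the table, with 0.925% of listed sites having no methylated aged cell. Its adjusted p was 0.0376 in the authors' deposited table.

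The coding site of Gabbr2, base 2701 in exon 16 (position 46677626), had 19 methylated aged cells, or 2.25% (1.36 to 3.49), and 36 young ones, or 1.37% (0.963 to 1.90). C-to-U within them was 0.952% in aged and 34.2% in young cells, and the mean was 0.0214% in aged and 0.469% in young cells, a log2 ratio of -4.46. Base 4371 (position 46663684) had 13 methylated aged cells, or 1.54% (0.821 to 2.61), and 16 young ones, or 0.610% (0.349 to 0.989). C-to-U within them was 8.49% in aged and 51.9% in young cells, with means of 0.131% in aged and 0.317% in young cells. At both bases the intervals of the shares overlapped. The adjusted p was 0.0277 at base 2701 and 0.000658 at base 4371 in the authors' deposited table.

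**Figure D3:**
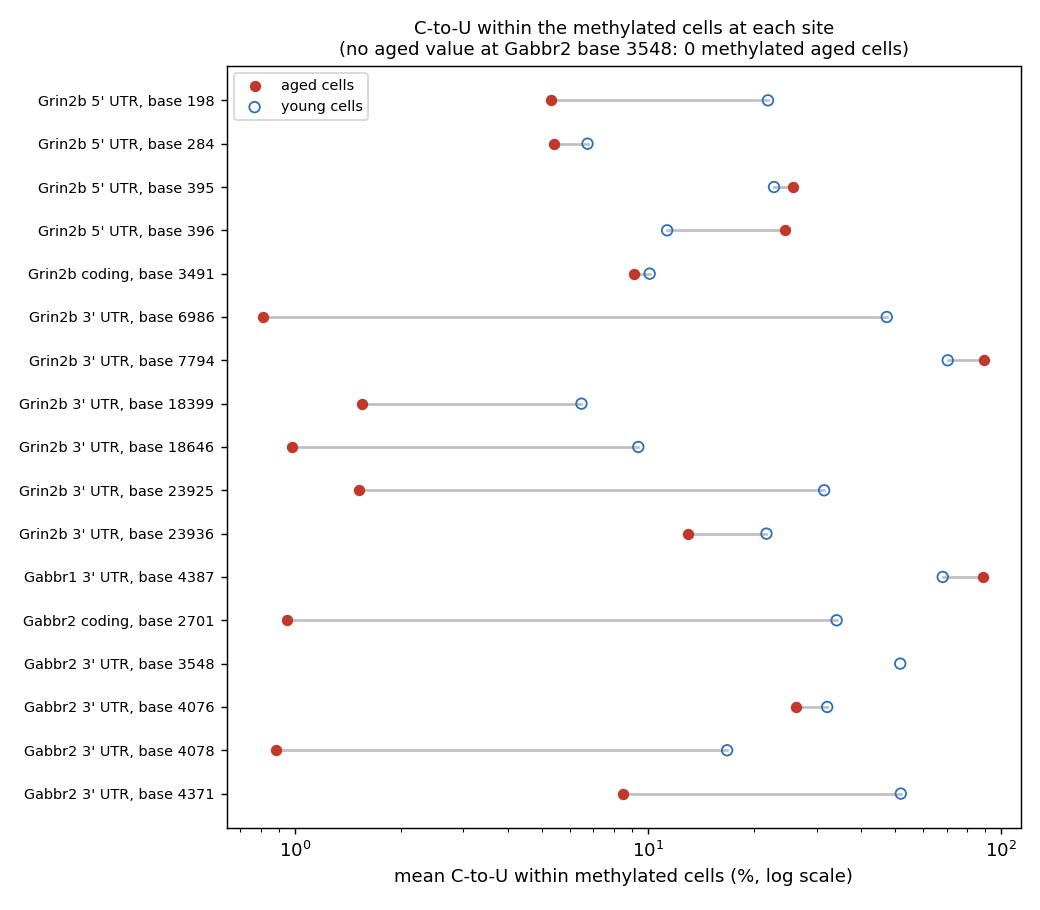
Mean C-to-U within methylated cells at each site, in percent on a log axis, for aged (filled red) and young (open blue) cells joined by a grey line. At 6 sites the aged value lies under 2%, while the lowest young value is 6.48%, and at Grin2b base 7794 and Gabbr1 base 4387 both values exceed 68%.

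Over the 17 sites, mean C-to-U was higher in aged cells at 6 and lower at 11. The share higher by mean was 35.3%, against 41.5% of all listed sites. The share of methylated cells was higher at 13 sites and lower at 4, and the 76.5% that were higher compare with 75.4% in the table. By C-to-U within methylated cells 4 of 16 sites were higher, 25.0% against 31.9%. The intervals of the shares lay apart at 9 of 17 sites (52.9%), against 62.5% of the table. Taken as a set, the 3 genes were therefore close to the table in each of these counts. All sites are in the table because they met the authors' criteria, so none of these counts says how often sites of these genes differed.

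Each log2 ratio of means is the sum of the log2 ratio of shares and that of C-to-U within methylated cells. Grin2b bases 395 and 396 were the sites where both parts were positive, and Grin2b base 23936 was the site where both were negative. At Gabbr1 base 4387 the parts were -2.09 (share) and 0.37 (within), and at Grin2b base 7794 they were -1.73 and 0.35. At 7 sites the mean was lower although more aged cells were methylated (41.2%, against 35.3% of the table). The aged fraction within methylated cells was under 2% at 6 of the 16 sites with a methylated aged cell (37.5%, against 34.9% of the table), and the young one at 0 of 17 (7.15% of the table). Those 6 sites include the 4 most negative ratios, -5.16, -4.46, -4.27 and -3.14. A fraction under 2% within a cell needs many reads in that cell, and since read depth is not in the table, the part of depth in these ratios was not tested. The median over the 11 Grin2b sites was a log2 ratio of means of -1.25. The median log2 ratio was 0.83 for the shares and -0.74 for C-to-U within methylated cells, and medians, unlike the values of a site, do not add up. Over the 4 Gabbr2 sites with a ratio it was -2.21, beside -0.87 over the 2036 listed sites with one.

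**Figure D4:**
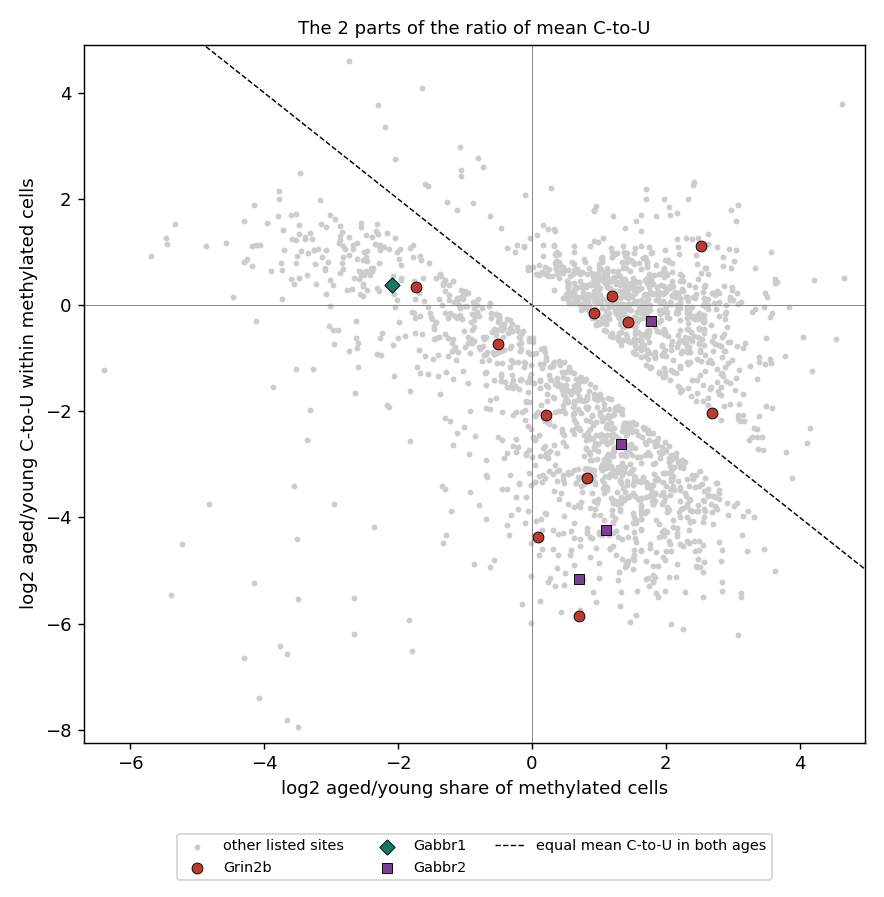
The log2 ratio (aged over young) of the share of methylated cells (horizontal axis) and of C-to-U within methylated cells (vertical axis) at 16 sites of the 3 genes, over the other listed sites in grey. Sites below the dashed line have a lower mean C-to-U in aged cells; Gabbr1 base 4387 and Grin2b base 7794 lie side by side at the left, and Grin2b base 396 at the upper right.

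Other genes of glutamate and GABA signalling were taken from lists, each gene by its site with the largest difference in mean. Of 7 NMDA receptor subunit genes 3 were listed. Grin2a, which encodes the alternative subunit GluN2A, had 1 site, in its 3' UTR, with a mean of 8.49% in aged and 3.63% in young cells, the opposite direction to Grin2b base 7794. Methylated cells were 10.0% (8.10 to 12.3) of aged and 7.55% (6.57 to 8.63) of young cells there, and C-to-U within them was 84.5% in aged and 48.1% in young cells. Both large GluN2 sites thus had a higher edited fraction in methylated aged cells, and their shares differed in direction, although the intervals for Grin2a overlapped. Grin1, the obligatory GluN1 subunit gene, had 1 of 5 sites higher by mean. Its largest site had a mean of 0.169% in aged and 3.52% in young cells, with C-to-U within methylated cells of 15.9% in aged and 94.2% in young cells. The authors' deposited table has adjusted p-values of 7.62e-24 for Grin2a and 0.0136 for Grin1.

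Of 11 genes for GABA-B auxiliary subunits and effectors 3 were listed, and all 4 of their sites, in 3' UTRs, had a lower mean in aged cells, as had 5 of the 6 sites of Gabbr1 and Gabbr2 together. Kcnj9, a subunit gene of the potassium channels that the GABA-B receptor opens, had a mean of 0.165% in aged and 0.658% in young cells. Kctd16, an auxiliary subunit gene, had 0.348% in aged and 0.727% in young cells, and Gnao1, a G protein alpha subunit gene, had 0.00871% in aged and 0.205% in young cells. Of all listed 3' UTR sites 76.1% were lower. The GABA-A receptor subunit genes Gabra3 and Gabra4 had 1 site each, in the 3' UTR. The mean was 0.172% in aged and 0.837% in young cells at Gabra3, and 0.137% in aged and 0.397% in young cells at Gabra4. Of 5 genes for GABA synthesis and transport, and of 7 kainate and delta receptor subunit genes, 0 were listed.

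Among the AMPA receptor subunit genes Gria2 and Gria3 8 of 31 sites were higher by mean, with largest sites of 1.76% in aged and 7.28% in young cells at Gria2 and of 1.27% in aged and 9.85% in young cells at Gria3. The metabotropic receptor gene Grm5 had 1 of 5 sites higher, with its largest site at 0.552% in aged and 1.18% in young cells. Of 17 genes for NMDA receptor partners 7 were listed, with 11 of 30 sites higher. Dlgap4, a postsynaptic scaffold, had a mean of 9.30% in aged and 1.15% in young cells in coding sequence, and Shank1, another scaffold, 1.83% in aged and 0.539% in young cells, also in coding sequence. Camk2a, a calcium-dependent kinase subunit that binds GluN2B, had 0.236% in aged and 2.04% in young cells in its 3' UTR.

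**Figure D5:**
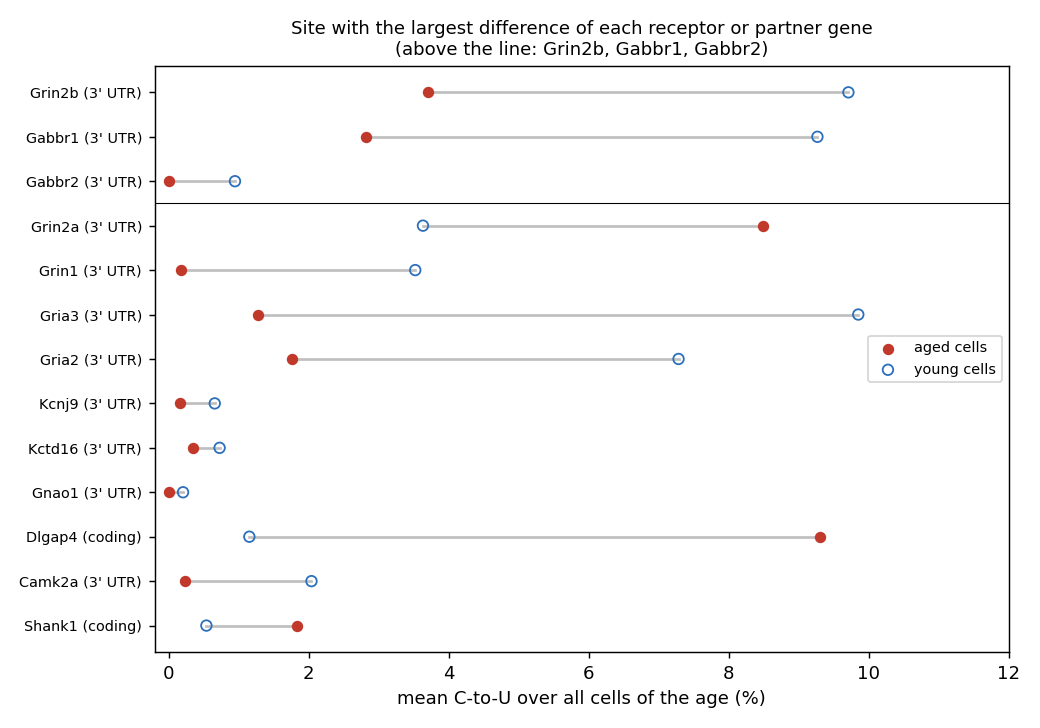
Mean C-to-U over all aged (filled red) and all young (open blue) cells, in percent, at the site with the largest difference of each gene, with Grin2b, Gabbr1 and Gabbr2 above the line and up to 3 genes each of the NMDA and AMPA receptor subunit, GABA-B effector and NMDA receptor partner lists below it. Grin2b and Gabbr1 have young values above 9% and aged values of 3.71% and 2.83%, while Grin2a and Dlgap4 have the higher value in aged cells.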

How the data were processed

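Cortex cells of aged APOBEC1-YTH mice were dissociated, fixed and barcoded by split-pool ligation with a Parse Biosciences kit, per the labels' protocols, whereas the series' design text describes sorted NeuN-stained nuclei. The submitters' processing notes name STAR 2.7.5 and mm10, and Bullseye as the site finder comes from the design text. Read filters, depth normalisation and the test the authors ran are unknown from the sources used. Per the file headers, the deposited table gives for each age the percent of cells methylated, the mean C-to-U fraction over all cells, and the number of methylated cells. The deposited log2 fold is young over aged, and its sign was turned. Each p-value, raw or adjusted, is deposited by the authors. Those percents and cell numbers gave 846 aged and 2623 young cells at each site with a methylated cell. All listed adjusted p-values were under 0.05, no listed site had under 25 methylated cells over both ages, and the smallest absolute log2 ratio was 0.58.

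C-to-U within methylated cells was computed as the mean divided by the share, and fractions are printed as percents. Positions were read as counted from 0 and are printed counted from 1. Sites were placed by gene name on GENCODE M21 transcripts (781 of 789 genes, 2037 sites), taking principal, then basic coding, then longer transcripts first. The edited base was C at 1970 placed sites, and at 207 under the other reading. Sequences come from the GENCODE M21 transcripts. Intervals were computed with scipy 1.17.1 and tested on simulated data. The limit for a count of 0 is 3 cells. Named genes were the 3 receptor genes with every site, and up to 3 genes per list by absolute difference in mean. A few genes of these lists are not reported here. The members and lists were chosen with earlier results of these data known. Alternatives kept other sites, summaries, intervals, transcripts or position readings.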

Additional observations from a re-analysis of the deposited data

How the results depend on the processing

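Of the 17 sites, 6 had a higher mean and 13 a higher share in aged cells, and these counts stayed within 1.5 times under each alternative: at least 10 methylated cells in each age, an adjusted p under 0.001 in the authors' deposited table, C after A, and 1 site per run of neighbours within 10 bases. With an adjusted p under 0.001 the mean was higher at 5 and the share at 10 of the 10 sites kept, so that the 4 sites with a lower share, Grin2b base 7794 and Gabbr1 base 4387 among them, dropped out. The edited fraction within methylated cells was higher at 2 of 10 sites with an adjusted p under 0.001 in the authors' deposited table, against 4 of 16, and fewer sites were kept. The median log2 ratio of each gene kept its sign with at least 10 methylated cells in each age. It also did so with the mean in place of the median. The median was not run under the other selections of sites. Of the Grin2b sites with an adjusted p under 0.001 in the authors' deposited table, the middle ratio was 0.65 (base 198). The sign for Grin2b was thus not kept there, and the Gabbr1 site, with an adjusted p of 0.0019, would drop out. With the Gabbr2 site without a methylated aged cell set at 3 fully edited cells, the Gabbr2 median was -1.42. Wilson intervals left 9 shares apart, as did the exact ones. The region was the same on every coding transcript, and positions read as counted from 1 gave C at 4 of 17 sites.

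For Grin2b, alternatives chosen after seeing the data were tried. The 5' UTR sites were higher at 4 of 4 by share, at 3 of 3 with C after A or with neighbours counted once, and at 2 of 4 by the edited fraction within methylated cells. The 3' UTR sites were lower at 5 of 6 by that fraction, at 2 of 6 by share, and at 3 of 3 with an adjusted p under 0.001 in the authors' deposited table. No paired analysis was possible because the table holds 1 value per age. The number of methylated aged cells, 0 to 35 outside Grin2b bases 395 and 396, limits the precision.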
